A study of Mus musculus with 30 samples.

Results

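Acute-phase proteins are plasma proteins that the liver makes in larger amounts when an infection or an injury has been sensed. Their genes are switched on in hepatocytes mainly by interleukin-6, acting through its receptor and the transcription factor Stat3, and by interleukin-1 and tumour necrosis factor, acting through NF-kB and the C/EBP factors. The strength of the response differs between the genes, and products of gut bacteria that reach the liver in portal blood are known to feed into it.

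The genes described here are 10 members of that response, namely the serum amyloid A genes Saa1, Saa2, Saa3 and Saa4, the orosomucoid genes Orm1, Orm2 and Orm3, the lipocalin gene Lcn2, the haptoglobin gene Hp and the hemopexin gene Hpx. Probes were taken by their annotated symbol when at least 7 of 30 arrays had a detection p-value under 0.05. This gave 11 probes of 24613 on the array, all 11 of which passed the detection condition, and they stand for 10 of the 9084 genes tested. Hp alone had a second probe.

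The livers came from 14 germfree mice, which carry no gut microbiota, and 16 conventional mice, which do. All animals were of the C57BL/6J strain and received a high-fat diet for 11 weeks, and food was withheld for 10 h before they were killed. The age, sex, cage, chip and order of processing were not given in the sources used here. RNA of 1 liver was hybridized to each single-colour Illumina array, so the livers are the replicates.

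Mean raw signal ran from 85.5 to 359 intensity units between arrays and the share of probes detected from 33.7% to 41.7%. The normalized arrays correlated with each other at r = 0.963 to 0.990. Germfree livers 1 and 3 and conventional liver 6 had a mean raw signal under 160 and are the arrays of low signal below. Of 7 hepatocyte marker genes tested, none passed the test between groups, and their summed level on the log2 scale was 15.79 to 16.28 in germfree and 15.80 to 16.21 in conventional livers. Levels below are normalized intensities on the log2 scale, where 1 unit is a 2-fold difference, and a change is the germfree mean minus the conventional mean.

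Promoters of the members are shown because the levels of several of them moved together between animals. The RefSeq table of promoters, on mouse build GRCm38.p6, held 8 of the 10 genes, all except Orm1 and Hp. In Saa1, Saa3 and Orm3 the start annotated there lies inside the annotated span of the gene, so their stretches and distances refer to an inner start. The stretches below are the 250 bases before the annotated start, written 5′ to 3′ on the strand of the gene, and capitals mark matches to the C/EBP motif TTGCNNAA on either strand.
Saa1 (chr7:46742981-46743230, minus strand): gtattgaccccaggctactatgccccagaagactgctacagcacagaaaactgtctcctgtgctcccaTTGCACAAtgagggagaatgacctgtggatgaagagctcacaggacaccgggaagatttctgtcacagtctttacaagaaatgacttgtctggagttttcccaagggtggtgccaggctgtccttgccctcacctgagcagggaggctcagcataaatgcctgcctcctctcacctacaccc
Saa2 (chr7:46751583-46751832, plus strand): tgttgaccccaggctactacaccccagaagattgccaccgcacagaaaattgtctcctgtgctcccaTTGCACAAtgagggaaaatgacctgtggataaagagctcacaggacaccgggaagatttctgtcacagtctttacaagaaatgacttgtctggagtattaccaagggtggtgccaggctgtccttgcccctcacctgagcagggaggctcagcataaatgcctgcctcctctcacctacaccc
Saa3 (chr7:46715677-46715926, minus strand): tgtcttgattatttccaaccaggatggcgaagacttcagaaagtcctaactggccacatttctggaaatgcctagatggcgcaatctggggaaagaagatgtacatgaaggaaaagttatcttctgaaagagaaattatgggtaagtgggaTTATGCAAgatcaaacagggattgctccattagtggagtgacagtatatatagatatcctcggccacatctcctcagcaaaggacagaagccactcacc
Orm2 (chr4:63362199-63362448, plus strand): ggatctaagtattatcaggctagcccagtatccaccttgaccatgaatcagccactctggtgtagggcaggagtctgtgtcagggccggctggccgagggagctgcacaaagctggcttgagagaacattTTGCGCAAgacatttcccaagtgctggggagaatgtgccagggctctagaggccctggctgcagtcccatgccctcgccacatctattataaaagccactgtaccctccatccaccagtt
Orm3 (chr4:63355908-63356157, plus strand): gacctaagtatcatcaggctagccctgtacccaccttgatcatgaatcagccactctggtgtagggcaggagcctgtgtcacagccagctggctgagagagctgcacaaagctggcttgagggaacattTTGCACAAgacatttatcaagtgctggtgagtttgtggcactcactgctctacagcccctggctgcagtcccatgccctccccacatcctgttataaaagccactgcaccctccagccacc
Lcn2 (chr2:32387740-32387989, minus strand): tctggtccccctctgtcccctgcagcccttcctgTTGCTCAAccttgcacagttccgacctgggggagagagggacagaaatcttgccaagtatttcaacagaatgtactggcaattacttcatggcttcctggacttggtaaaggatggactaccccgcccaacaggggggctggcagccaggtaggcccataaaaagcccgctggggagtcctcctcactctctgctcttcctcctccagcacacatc
The motif was found in 8 of 8 members with a promoter in the table, against 9.57% of the 32526 promoters of the same length. It lay 182 bases before the start in Saa1, 183 in Saa2, 99 in Saa3, 120 in Orm2, 121 in Orm3, 216 in Lcn2 and 200 in Hpx. Saa4 held it at 245 and at 52 bases. Under quantile normalization no pair of Saa4 or Orm3 passed with a positive r in the tests below, so the motif did not set apart the genes that moved together. The STAT motif TTCNNNGAA was in 0 of 8, against 7.04% of all promoters, and the NF-kB consensus in 0 of 8, against 3.92%. These are matches of letters in a short window and say nothing of binding, whether found or not found. The promoters of Saa1 and Saa2 were identical at 238 of 251 aligned positions (94.8%), and those of Orm2 and Orm3 at 85.5%. Matches in such close copies are not separate observations.

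Between germfree and conventional livers, 1 of the 10 genes passed the test. Orm2 fell in germfree liver, and 9 of the 10 genes did not pass, among them Saa3 and Lcn2, whose measured changes were larger than that of Orm2 but whose livers differed more from each other. Across all 9084 genes 6.49% passed, 2.74% with a lower and 3.75% with a higher level in germfree liver (limma, Benjamini-Hochberg adjusted p under 0.05), so 1 of 10 is close to that background. In whole liver, a lower level cannot be divided into fewer cells of a type and less RNA per cell.

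**Figure D1:**
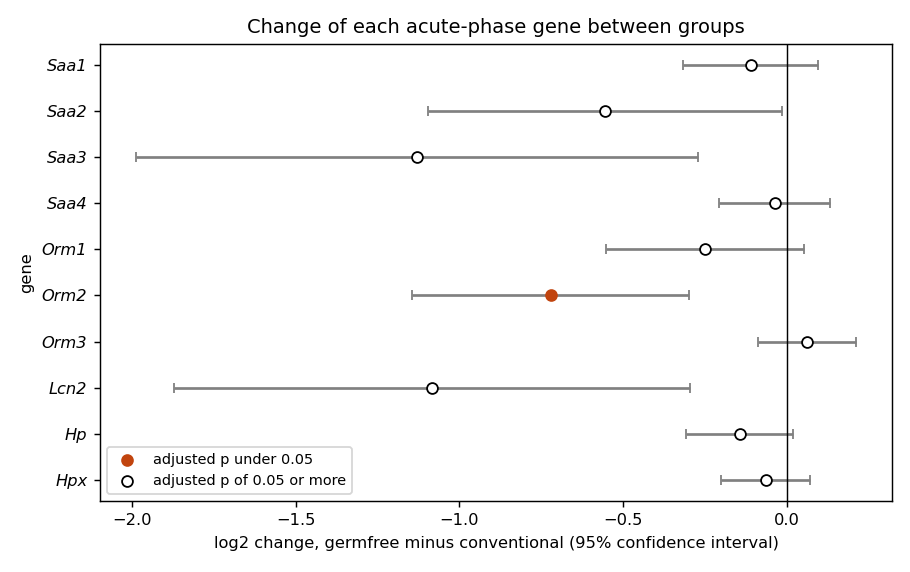
The x axis is the log2 change, germfree minus conventional, with its 95% confidence interval, and each line is 1 gene. The filled point is Orm2 at -0.72, and the open points did not pass an adjusted p of 0.05, among them Saa3 at -1.13 and Lcn2 at -1.08.

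Orosomucoids, also called alpha-1-acid glycoproteins, carry basic and neutral lipophilic compounds in plasma and dampen leukocyte activity. Orm2 (gene 18406, chromosome 4) ranged from 10.40 to 12.17 with a median of 11.40 in germfree livers, and from 10.93 to 13.21 with a median of 11.85 in conventional livers. The ranges overlapped, with 12 of 14 germfree livers below the conventional mean. Orm2 averaged 11.24 ± 0.62 (SD, n = 14) in germfree and 11.96 ± 0.62 (SD, n = 16) in conventional livers, a change of -0.72 ± 0.21 (SE; 95% interval -1.15 to -0.30), or 1.65-fold (limma, adjusted p = 0.0296). The adjusted p rose above 0.05 when any of 8 of the 30 livers was left out, namely germfree livers 1, 2, 3, 7, 12 and 14 and conventional livers 2 and 10, with 0.0547 as the highest. It was 0.0886 without the arrays of low signal, with a change of -0.65, and 0.452 under median scaling, with a change of -0.69 (limma).

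Orm1 lies in the same cluster on chromosome 4. Its levels ran from 12.84 to 13.86 with a median of 13.59 in germfree livers, and from 12.96 to 14.65 with a median of 13.59 in conventional livers. The medians were alike to 2 decimals, and the upper end was reached by conventional livers, with liver 11 the highest in Orm1, Orm2 and Lcn2. The change was -0.25 ± 0.15 (SE; limma, adjusted p = 0.391). Orm3, the third gene of the cluster, was near the detection limit, detected in 13 of 14 germfree and 15 of 16 conventional livers. It averaged 5.18 ± 0.24 (SD, n = 14) in germfree and 5.12 ± 0.15 (SD, n = 16) in conventional livers, a change of 0.06 ± 0.07 (limma, adjusted p = 0.731).

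Whether Orm2 changed by more than Orm1 was tested within each liver, a comparison chosen after the levels had been seen. The Orm2 level minus the Orm1 level, on the log2 scale, was -2.18 ± 0.29 (SD, n = 14) in germfree and -1.71 ± 0.22 (SD, n = 16) in conventional livers. The values spanned -2.62 to -1.60 in germfree and -2.18 to -1.25 in conventional livers, so the groups overlapped in part. The difference between groups was -0.47 (permutation p = 4e-05, two-sided), and it lay between -0.52 and -0.42 with p of 0.00021 or less in 34 alternatives, median scaling and each liver left out among them. A signal ratio between probes has no meaning as a ratio of transcripts, but its shift shows an unequal change of the signals. Within each group Orm2 also spread more than Orm1, with an SD of 0.62 against 0.39 in germfree and 0.62 against 0.47 in conventional livers. Whether a fall shared by both genes would give such a shift was not tested. The 3 orosomucoid genes are close copies, and whether a probe also binds the transcript of its neighbour was not tested.

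Serum amyloid A proteins are small apolipoproteins of high-density lipoprotein. Saa1 and Saa2 are made in hepatocytes in the acute phase, Saa3 is made in mouse also by macrophages and fat cells, and Saa4 is the constitutive form. Saa3 (gene 20210, chromosome 7) ranged from 6.86 to 9.69 with a median of 8.10 in germfree livers, and from 6.94 to 12.01 with a median of 8.80 in conventional livers. The lowest livers of the groups were close to each other, and the highest lay in conventional animals, so that the span was 7.11-fold in germfree and 33.5-fold in conventional livers. Saa3 averaged 8.08 ± 0.85 (SD, n = 14) in germfree and 9.21 ± 1.54 (SD, n = 16) in conventional livers, with 13 of 14 germfree livers below the conventional mean. The change of -1.13 ± 0.42 (SE; 95% interval -1.99 to -0.27) did not pass after adjustment (limma, p = 0.0114, adjusted p = 0.112).

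Saa2 ran from 10.59 to 13.94 with a median of 13.47 in germfree livers, and from 12.10 to 14.28 with a median of 13.74 in conventional livers. The groups overlapped over most of this span, and 4 germfree livers, at 12.22 or below, lay under every conventional liver except liver 13. The change was -0.56 ± 0.27 (SE; limma, p = 0.0442, adjusted p = 0.249). Saa1 was among the 50 strongest signals of the 9084 genes on every array, where quantile normalization sets the values by rank. It had a lowest level of 13.49 and a median of 14.92 in germfree livers, and ran from 14.59 to 15.08 with a median of 14.92 in conventional livers. The highest germfree level lay just below 15.08. Germfree liver 3 stood more than 1 log2 unit below the next germfree liver, at 14.56, and the change was -0.11 ± 0.10 (limma, adjusted p = 0.633). Without the arrays of low signal, which include liver 3, the Saa1 change was 0.00. Whether the Saa1 probe also binds the Saa2 transcript, or the reverse, was not tested.

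Saa4 showed little spread, from 11.93 to 12.83 in germfree and from 11.97 to 12.85 in conventional livers. Its change was -0.04 ± 0.08 (95% interval -0.21 to 0.13; limma, adjusted p = 0.881).

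Lcn2 codes for neutrophil gelatinase-associated lipocalin, which withholds iron from bacteria by binding their siderophores. Lcn2 (gene 16819, chromosome 2) ranged from 8.38 to 13.44 with a median of 12.33 in germfree livers, and from 11.42 to 14.25 with a median of 12.97 in conventional livers. Germfree livers 1, 2, 3 and 7 were at 10.72 or below, less than every conventional liver, and the other 10 germfree livers lay between 12.06 and 13.44, inside the conventional span. The span was 33.2-fold in germfree and 7.08-fold in conventional livers, the reverse order of Saa3. The mean absolute deviation of Lcn2 from the group median was 1.05 in germfree and 0.63 in conventional livers. Without the arrays of low signal it was 0.67 in each group. Lcn2 averaged 11.81 ± 1.48 (SD, n = 14) in germfree and 12.90 ± 0.78 (SD, n = 16) in conventional livers, a change of -1.08 ± 0.39 (SE; 95% interval -1.87 to -0.29) that did not pass (limma, p = 0.00861, adjusted p = 0.0938). Livers 1 and 3 of those 4 were arrays of low signal, while liver 7 had the highest mean raw signal of all, 359.

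Haptoglobin binds free haemoglobin and hemopexin binds free haem, and both are abundant in plasma without inflammation. Hp and Hpx signals were among the 28 and 20 strongest of the 9084 genes on every array, and some livers share a level in them too. Hp averaged 14.65 ± 0.27 (SD, n = 14) in germfree and 14.80 ± 0.15 (SD, n = 16) in conventional livers, a change of -0.14 ± 0.08 (limma, adjusted p = 0.344). The second Hp probe averaged 13.91 ± 0.53 in germfree and 14.29 ± 0.28 in conventional livers, a change of -0.38 ± 0.14 (limma over all probes, adjusted p = 0.118). The readings of the 2 Hp probes correlated at r = 0.80 across germfree and at -0.06 across conventional livers, so in conventional animals they did not rank the livers alike. Hpx averaged 14.73 ± 0.19 in germfree and 14.79 ± 0.15 in conventional livers, a change of -0.06 ± 0.07 (limma, adjusted p = 0.687).

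**Figure D2:**
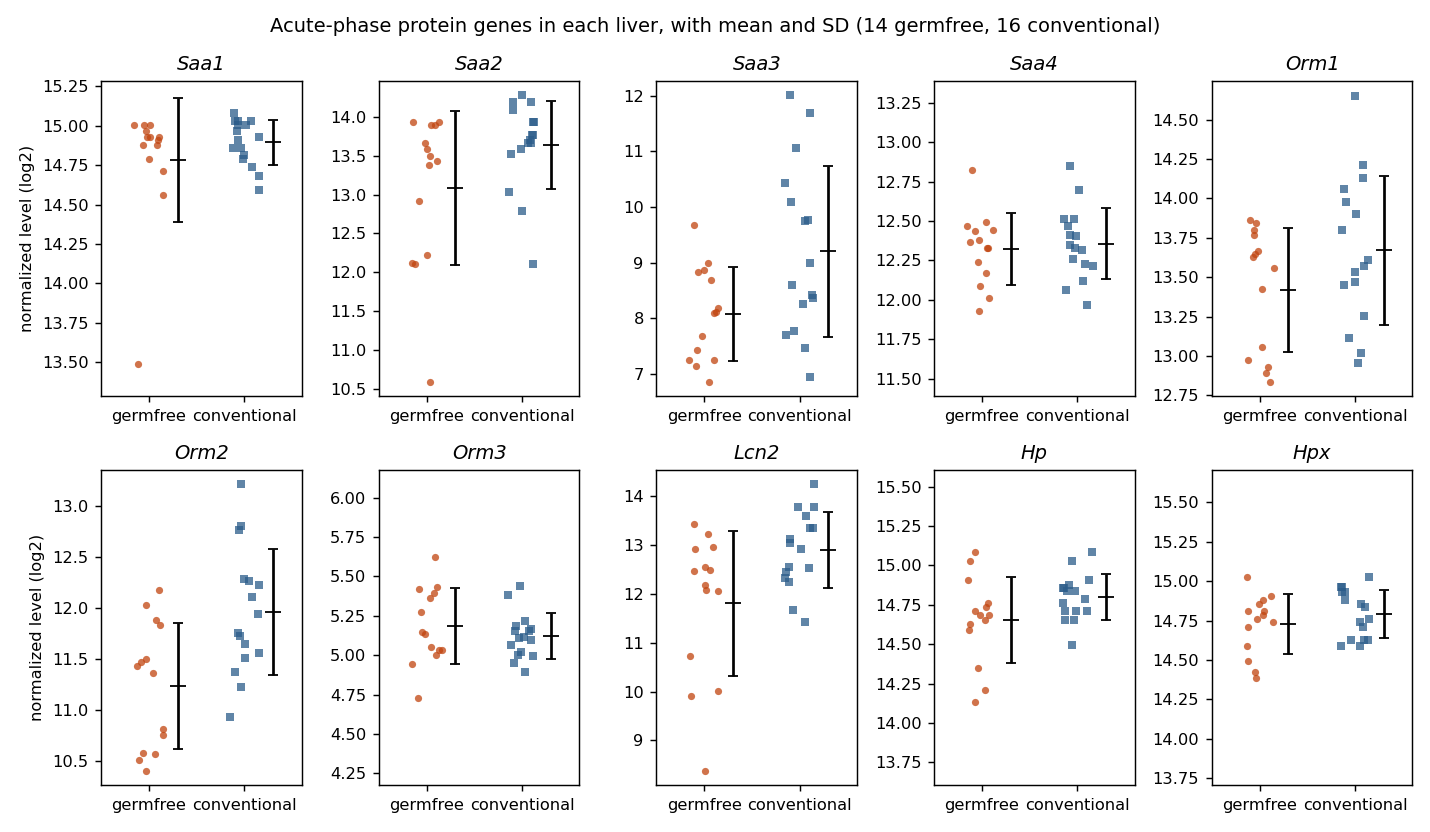
Each panel is 1 gene, each point 1 liver (germfree left, conventional right), the y axis is the normalized level on the log2 scale, and the bar is the mean with its SD. Conventional livers reach 12.01 in Saa3 against 9.69 in germfree livers, and 4 germfree livers lie at 10.72 or below in Lcn2.

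The variation between animals of the same group was large for some of these genes. Among all genes, the SD of Lcn2 stood at percentile 99.96 in germfree and 99.2 in conventional livers, that of Saa3 at 99.6 in germfree and 99.98 in conventional livers, and that of Saa2 at 99.8 in germfree and 97.8 in conventional livers. Saa1 stood at percentile 91.0 in germfree and 5.78 in conventional livers. The mean absolute deviation of Saa1 from the group median was 0.18 in germfree and 0.11 in conventional livers. Without the arrays of low signal the order turned, with 0.08 in germfree and 0.12 in conventional livers. Germfree liver 3 was the lowest of its group in Saa1, Saa2, Saa3, Orm3 and Lcn2, and conventional liver 13 the lowest of its group in Saa2, Saa3, Orm2, Orm3 and Lcn2. Whether the spread differed between groups was tested on the mean absolute deviation from the group median, and 0 of 10 genes passed. Saa3, at 0.69 in germfree and 1.27 in conventional livers, had permutation p = 0.0399 and adjusted p = 0.241, and Orm3 the same adjusted p with p = 0.0482.

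Within each group, the question was whether the genes rose and fell together from animal to animal. A set of 5 genes did, namely Saa2, Saa3, Orm1, Orm2 and Lcn2, grouped here after their correlations had been seen. Of all 45 pairs of the 10 genes, 17 passed in germfree livers, all with a positive r, and 12 in conventional livers, 11 positive and 1 negative (permutation test of Pearson's r, adjusted over 90 tests). Unadjusted, 23 pairs in germfree and 16 in conventional livers had p under 0.05. As a background, 6.04% of all pairs of tested genes in germfree livers and 4.43% in conventional livers had an r as far from 0 as the weakest pair that passed. The median r over the 45 pairs was 0.45 in germfree and 0.28 in conventional livers, where the median over all gene pairs was 0.00 in both. Of the pairs, 10 passed in both groups, 7 in germfree livers alone, 2 in conventional livers alone and 26 in neither.

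**Figure D3:**
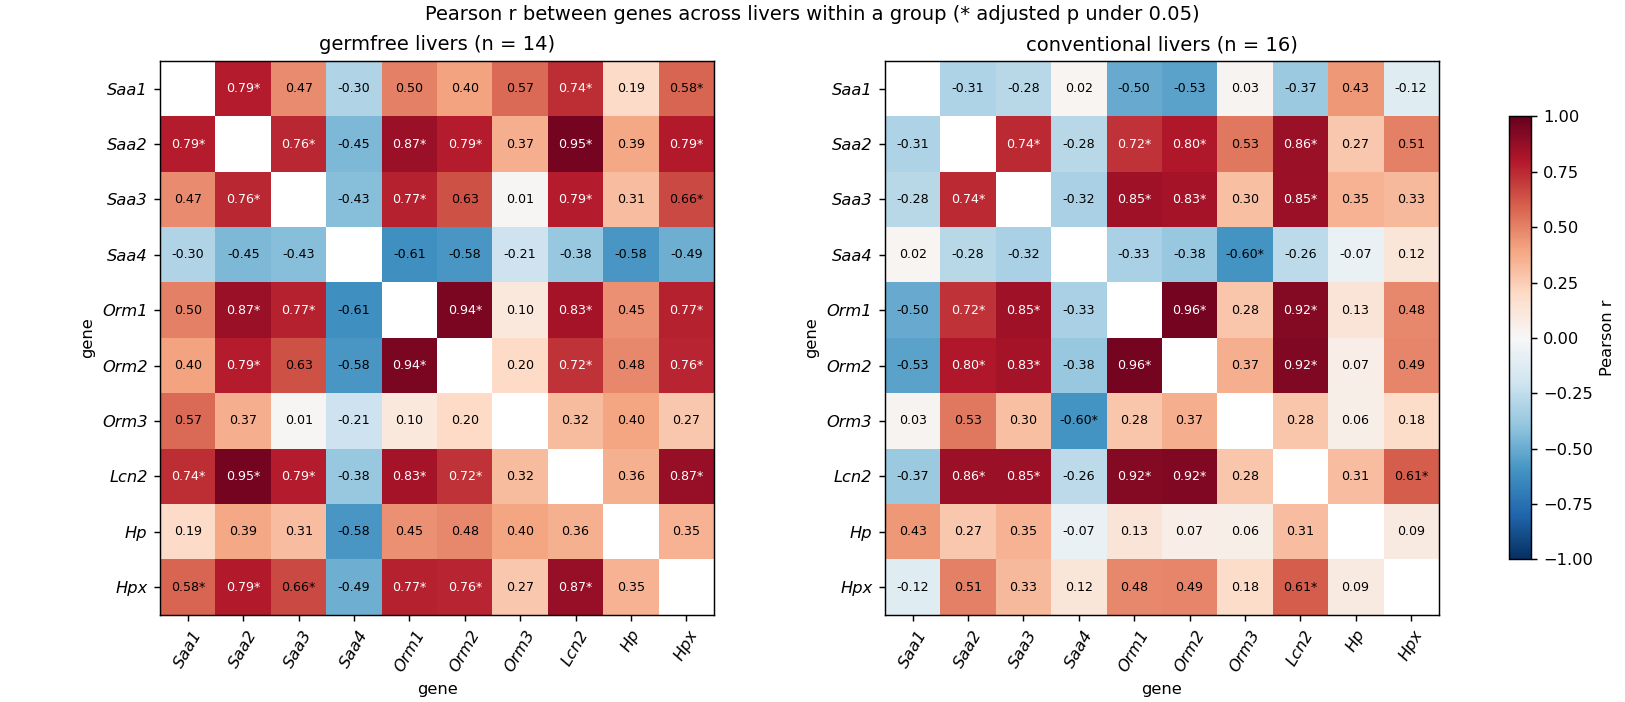
Each cell holds Pearson's r between the log2 levels of 2 genes across the 14 germfree livers (left) or the 16 conventional livers (right), on a colour scale from -1 to 1, and a star marks an adjusted permutation p under 0.05. Saa2, Saa3, Orm1, Orm2 and Lcn2 form the block of high values in both panels, and the line of Saa1 is positive with them on the left and negative on the right, where under median scaling it is positive as well (0.24 to 0.45).

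Among those 5 genes, 9 of 10 pairs passed in germfree livers, with r from 0.63 to 0.95, and 10 of 10 in conventional livers, with r from 0.72 to 0.96. By Spearman's rho all 10 passed in each group. Orm1 and Orm2 gave r = 0.94 in germfree and 0.96 in conventional livers (permutation, adjusted p = 0.00018 in each), with rho of 0.93 in germfree and 0.96 in conventional livers. Saa2 and Lcn2 gave r = 0.95 in germfree and 0.86 in conventional livers (permutation, adjusted p = 0.000257 in germfree and 0.00018 in conventional livers). Saa3 and Lcn2 gave r = 0.79 in germfree and 0.85 in conventional livers (permutation, adjusted p = 0.00324 in germfree and 0.000257 in conventional livers). The pair that missed was Saa3 with Orm2 in germfree livers, at r = 0.63 (permutation, adjusted p = 0.0510). With the 2 livers farthest from the median of the first gene left out, r over these pairs was 0.64 to 0.92 in germfree and 0.67 to 0.94 in conventional livers.

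Fewer germfree pairs passed without the 4 livers that were low in Lcn2. Those livers were also the lowest 4 of the group in Saa2, and 3 of them were among the lowest 4 in Saa3, Orm1 and Orm2. Without them, a step chosen after the values had been seen, 3 of 10 pairs passed in the other 10 germfree livers, with r from 0.26 to 0.87. The pairs that passed were Orm1 with Orm2 at 0.87, Saa2 with Orm1 at 0.87 and Saa2 with Orm2 at 0.82 (permutation, adjusted p = 0.0037, 0.0197 and 0.0197), while Lcn2 with Saa3, Orm1, Saa2 and Orm2 was at 0.64, 0.59, 0.56 and 0.44 (adjusted p of 0.209 or more). The same step in conventional livers, which left 12 of them, kept 10 of 10 pairs past the threshold, with r from 0.69 to 0.95. The livers were chosen by Lcn2, so the step itself narrows the span of Lcn2 and lowers its r, and fewer livers give a test less to work with.

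**Figure D4:**
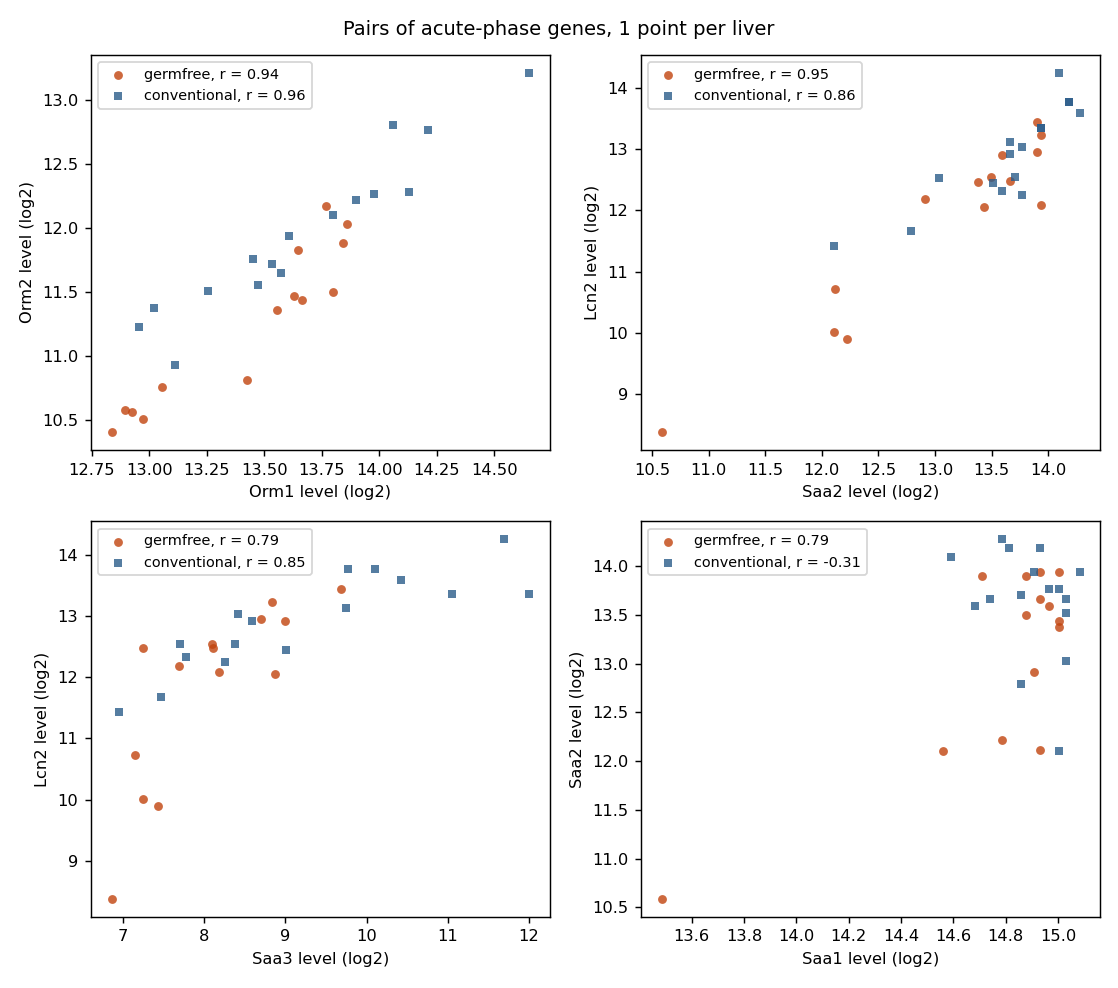
Each panel sets the log2 levels of 2 genes against each other, 1 point per liver, with germfree livers as circles and conventional livers as squares. Germfree livers extend the Saa2 and Lcn2 cloud downward to 8.38 in Lcn2, and in the panel of Saa1 and Saa2 germfree liver 3 lies alone at 13.49 in Saa1.

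Hpx went with the 5 genes in germfree livers, where 5 of 5 pairs passed with r from 0.66 to 0.87. In conventional livers 1 of 5 passed, that with Lcn2 at r = 0.61 (permutation, adjusted p = 0.0457), over a range of 0.33 to 0.61. Without the 4 germfree livers low in Lcn2, 0 of the 5 germfree pairs passed, with r from 0.35 to 0.73. Without the arrays of low signal, 2 passed in germfree and 0 in conventional livers.

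Each relation of Saa1 that passed in germfree livers was lost when liver 2 or liver 3 was left out. In germfree livers Saa1 passed with Saa2 (r = 0.79), Lcn2 (0.74) and Hpx (0.58), with permutation adjusted p of 0.0186, 0.0174 and 0.0487. Germfree liver 3 was the lowest in both Saa1 and Saa2, and for these pairs rho was 0.41, 0.21 and 0.35 and r without the 2 farthest livers was 0.13, 0.12 and 0.04. With liver 3 left out, the highest r of Saa1 with any of the other 9 genes was 0.49, and 1 pair passed, Saa1 with Saa4 at -0.74. Without liver 2 the r of Saa1 with Saa2 was 0.78 and with Lcn2 0.74, with adjusted p = 0.0800 in each (permutation). Of 14 fits that each left out a liver, the pairs of Saa1 with Saa2 and Lcn2 passed in 12 each and that with Hpx in 2. Under median scaling 8 of the 9 germfree pairs of Saa1 passed, with r from 0.50 to 0.94, where all gene pairs had a median r of 0.43. In conventional livers Saa1 passed with none of the other 9 genes, with r from -0.53 with Orm2 to 0.43 with Hp. The direction turned under median scaling, where Saa1 was at 0.44 with Orm2, 0.45 with Orm1 and 0.40 with Saa2, its r ran from 0.24 to 0.92 and 2 of the 9 pairs passed. All gene pairs had a median r of 0.47 in conventional livers under that scaling. Saa4, Orm3 and Hp gave 0 of 24 pairs past the threshold in germfree and 1 of 24 in conventional livers, Saa4 with Orm3 at r = -0.60 (permutation, adjusted p = 0.0485), where rho had adjusted p = 0.0748. That pair passed in 3 of 16 fits that each left out a liver, and its r was 0.33 under median scaling. Some pairs of Saa4, Orm3 and Hp passed under that scaling in each group, with r down to 0.03 in germfree and 0.23 in conventional livers. Hp with Saa1 was then at 0.86 in germfree and 0.92 in conventional livers. Hp with Hpx was also at 0.86 in germfree and 0.92 in conventional livers (permutation, adjusted p of 0.000379 or less for both pairs). For the second Hp probe 0 of 18 relations passed and 2 had an unadjusted p under 0.05 (permutation), those with Lcn2 and Orm2 in conventional livers.

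No pair was shown to differ in r between groups. Of 45 differences 0 passed and 5 had an unadjusted p under 0.05, 4 of them pairs of Saa1, and Saa1 with Saa2, at r = 0.79 in germfree and -0.31 in conventional livers, had permutation p = 0.0177 and adjusted p = 0.449. The 7 pairs that passed in germfree livers alone are therefore not shown to be particular to germfree mice.

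The mean of neutrophil marker genes correlated with the same 5 genes in conventional livers. Lcn2 is itself made by neutrophils, and S100a8 and S100a9 code for the calprotectin subunits of these cells. Of 11 markers 5 were tested (S100a8, S100a9, Csf3r, Retnlg and Camp), 2 of these were detected on all arrays, none passed between groups, and Mpo, Elane, Ltf, Ngp, Mmp8 and Cxcr2 did not pass the detection condition. Their summed level on the log2 scale was 7.47 to 8.42 in germfree and 7.48 to 9.12 in conventional livers. In conventional livers the mean of these markers correlated with Saa3 at r = 0.89 (permutation, adjusted p = 0.0028), with Orm2 at 0.75, Orm1 at 0.72, Lcn2 at 0.72 and Saa2 at 0.70 (adjusted p = 0.0473 each). By Spearman's rho Saa3 and Saa2 passed, at 0.89 and 0.78, and Orm2, Lcn2 and Orm1 did not (permutation, adjusted p = 0.0567, 0.0567 and 0.0658). Across all tested genes but the markers, 4.36% had an r with that mean as far from 0 as Saa2. The 5 were the relations that passed by Pearson's r among 140 between members and array quality or marker lists. In germfree livers r was 0.45 for Saa3, 0.38 for Orm2, 0.50 for Orm1, 0.54 for Lcn2 and 0.43 for Saa2, none past the threshold. The hepatocyte marker mean, which includes Ttr and Serpina1a, gave r = -0.72 for Hpx in germfree livers (permutation, adjusted p = 0.0845). With it Orm2 was at -0.61, Lcn2 at -0.57, Saa2 at -0.56 and Orm1 at -0.55, while Saa4 was at 0.37 and Hp at 0.15, none past the threshold.

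With the neutrophil marker mean taken out, a step added after the data were seen, 9 of the 10 pairs among the 5 genes passed in germfree and 6 of 10 in conventional livers, where r was then 0.37 to 0.91. The change of Orm2 between groups was -0.48 with that mean as a covariate (limma, adjusted p = 0.111). The part of neutrophils in these relations was not tested beyond these values. No member passed with the share of probes detected or with mean raw signal. Saa1 in conventional livers was at r = -0.50 with log2 mean raw signal (permutation, p = 0.045, adjusted p = 0.399), with rho = -0.60. In germfree livers Orm3 was at -0.28 and Hp at -0.48. Without the 2 livers farthest from the median of that signal they were at -0.78 and -0.72.

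**Figure D5:**
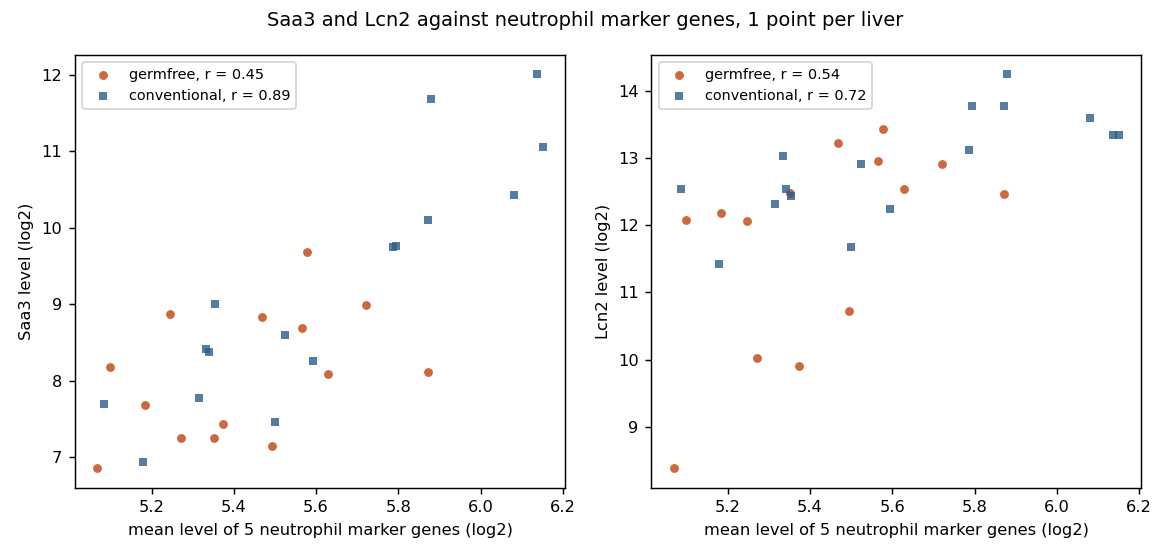
The x axis is the mean log2 level of 5 neutrophil marker genes and the y axis the log2 level of Saa3 (left) or Lcn2 (right), 1 point per liver, with germfree livers as circles and conventional livers as squares. Saa3 follows the markers at r = 0.89 in conventional livers and at 0.45 in germfree livers.

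Among other genes of the acute phase, Hamp had a larger change than any of the 10 members. Of 21 tested positive acute-phase genes outside the 10, hepcidin (Hamp), the hormone that blocks iron export, fell (log2 change -1.25 ± 0.18; limma, adjusted p = 2.71e-05), with all 14 germfree livers below the conventional mean, and the rest did not pass, among them Lbp, the carrier of bacterial lipopolysaccharide, at -0.12 ± 0.14 and the protease inhibitor Serpina3n at -0.10 ± 0.12. In this list 1 of 21 fell, where 2.74% of all genes fell. The median change of the list was -0.06, against 0.00 over all genes. Of 12 tested negative acute-phase genes, whose products decline in inflammation, 3 rose in germfree liver and none fell, where 3.75% of all genes rose. They were fetuin-B (Fetub, 0.35 ± 0.08), fetuin-A (Ahsg, 0.27 ± 0.06) and transferrin (Trf, 0.23 ± 0.07), with limma adjusted p of 0.0034, 0.00517 and 0.0478, and the list median was 0.09. Trf was lost in 23 of 30 fits that each left out a liver, with an adjusted p of up to 0.0795, and Fetub and Ahsg in none. Under median scaling the 3 kept a positive change and did not pass (limma, adjusted p of 0.607 or more), while Hamp did (adjusted p = 0.00656). Albumin and Fgb did not pass the detection condition.

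Of 17 tested receptors and transcription factors of the response 1 passed, close to the 6.49% of all genes that passed. The gene was Nfkbiz, an NF-kB cofactor induced by interleukin-1 and bacterial products, which rose by 0.47 ± 0.11 in germfree liver (limma, adjusted p = 0.00496). The Nfkbiz level of each of the 14 germfree animals exceeded the conventional mean, and its adjusted p was 0.145 under median scaling. The changes of Stat3 (-0.13 ± 0.09), its feedback inhibitor Socs3 (-0.27 ± 0.23), Cebpb (0.19 ± 0.12), Cebpd (0.17 ± 0.10), Il6ra (0.03 ± 0.13), Il1r1 (-0.09 ± 0.11) and Nfkbia (0.27 ± 0.12) did not pass. Of 6 tested receptors that bind or clear the proteins 0 passed, and 2 of the 6 had an unadjusted p under 0.05 (limma).

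Beside Lcn2, the same lists showed which further genes varied with the member of the widest germfree span. These 100 relations, of 50 genes in each group, were chosen after the data had been seen. Across all tested genes, 1.9% in germfree and 6.78% in conventional livers had an r with Lcn2 as far from 0 as the weakest listed gene that passed. Of 21 positive acute-phase genes 7 passed with a positive r in germfree and 6 in conventional livers, and 1 passed with a negative r, Serpina1a at -0.77 in germfree livers (permutation, adjusted p = 0.0105). Serpina3n gave r = 0.93 in germfree and 0.86 in conventional livers, and Lbp 0.91 in germfree and 0.71 in conventional livers, although neither gene passed between groups. Itih4, an inter-alpha-trypsin inhibitor chain, gave 0.88 in germfree and 0.77 in conventional livers, and Steap4, a metalloreductase, 0.74 in germfree and 0.85 in conventional livers. Hamp, which did change between groups, was at 0.12 in germfree and 0.28 in conventional livers and did not pass.

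Among receptors and transcription factors, the tumour necrosis factor receptor Tnfrsf1a followed Lcn2 at r = 0.90 in germfree and 0.79 in conventional livers, and Socs3 at 0.85 in germfree and 0.64 in conventional livers (permutation, adjusted p of 0.0349 or less). Osmr, the oncostatin M receptor, passed in conventional livers at 0.70 and not in germfree livers at 0.60. Stat3 itself was at 0.25 in germfree and 0.33 in conventional livers, and Cebpb at 0.58 in germfree and 0.57 in conventional livers, neither past the threshold. Of the 12 negative acute-phase genes, 1 passed with Lcn2 in conventional and 0 in germfree livers. The median r of the list was 0.01 in conventional and -0.09 in germfree livers. The gene that passed, transthyretin (Ttr), ran against Lcn2 at r = -0.73 in conventional livers (permutation, adjusted p = 0.00908), with -0.62 in germfree livers not passing. Fetub went the other way in conventional livers, at 0.60, and did not pass (permutation, adjusted p = 0.0632).

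Outside the lists, the genes most like a member were taken as those with the largest value of the smaller of the 2 within-group r. For Orm2 these were Cyb561 (0.84 in germfree and 0.90 in conventional livers), Slc41a2 (0.83 in germfree and 0.88 in conventional livers), Serpina3n (0.86 in germfree and 0.82 in conventional livers), Stx5a and Litaf. For Lcn2 they were Slc41a2 (0.89 in germfree and 0.90 in conventional livers), Serpina3n, Fam222a, Defb43 and Cyb561. Saa1 had a weaker company, led by Unc119 (0.67 in germfree and 0.54 in conventional livers) and followed by Bsg, C1qa, Ndufc1 and Il6ra. Hp was led by Anp32e (0.69 in germfree and 0.60 in conventional livers), followed by Fgf18, Socs1, Actg2 and Cblb. These are the top values among 7839 named genes over 14 and 16 livers and are given as a description. Of the genes named, Serpina3n, Il6ra and C1qa also belong to the lists used here.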

How the data were processed

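Liver RNA of 30 mice was measured on single-colour arrays. Per the file headers, one deposited table gave unnormalized mean intensity and a detection p-value for every probe and array. GenomeStudio is named without a version in the submitters' processing notes. The authors' deposited value table of the same arrays held linear intensity after quantile normalization and served as an alternative. The signal table held 33 columns without a sample in the labels, which were not used.

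Intensities were background corrected from the detection p-values (offset 16), quantile normalized and log2 transformed (neqc, limma 3.58.1, R 4.3.3). Probes with detection p under 0.05 on at least 7 arrays were kept, 10525 of 24613. The probe with the highest mean stood for a gene, and 9084 genes were tested. The group test was two-sided limma (lmFit, eBayes) with Benjamini-Hochberg adjustment over all genes. Correlations, their differences and spreads used 100000 permutations (Python 3.11.15), two-sided. On simulated data of this comparison, over 9084 genes, 26% of changes of 0.25, 87% of 0.5 and 100% of 1 (log2) were recovered, with 3 of 8884 unchanged genes called. These shares need not hold for genes as variable as Saa3 and Lcn2, whose measured changes of -1.13 and -1.08 did not pass. Promoters came from RefSeq (GRCm38.p6). Figures used matplotlib 3.10.9.

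The members and lists were chosen with earlier results of these data known. Genes named are all members, list genes past the threshold (up to 6 per list), a fixed set of regulators, and the 5 genes most like Saa1, Orm2, Lcn2 and Hp. The labels do not pair livers by replicate number. Same-numbered livers correlated at -0.18 to 0.37 over 14 pairs. Livers of unlike number were not set beside them, so these values cannot decide whether the numbers mark pairs. Alternatives were other scalings, filters and probe rules, the authors' values, a replicate block, a term for the detected share, arrays of low signal left out and each liver left out. Steps chosen later, with the data in view, were the neutrophil marker mean as a covariate, the 28 arrays of the block without it, the 4 livers of a group lowest in Lcn2 left out, the difference of Orm2 and Orm1, the relations of listed genes with Lcn2, and the grouping of 5 correlated members. Array number limits the precision.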

Additional observations from a re-analysis of the deposited data

How the results depend on the processing

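The count of members that passed between groups, 1 (Orm2), was 0 under median scaling, without the arrays of low signal, with no filter, in the 28 arrays without the block and with the neutrophil marker mean as a covariate, and 0 to 1 with a liver left out. In the fit with a replicate block it was 1 (Orm2 -0.72, limma adjusted p = 0.0413), and the labels do not pair livers by replicate number. The Orm2 change lay between -0.79 and -0.48 in 42 alternatives. The Saa1 change turned from -0.11 to 0.00242 without the arrays of low signal. Genes that passed in the lists numbered 11, against 1 under median scaling, 7 without the arrays of low signal and 9 to 11 with a liver left out. All genes that passed numbered 590, against 69 under median scaling, where 42 were higher and 27 lower in germfree liver. The cause was not tested.

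Pairs that passed numbered 17 in germfree livers, against 29 under median scaling, 3 without the 4 livers lowest in Lcn2 and 13 to 21 with a liver left out. In conventional livers 12 passed, against 29 under median scaling, 6 with the neutrophil marker mean as a covariate and 10 to 16 with a liver left out. Under median scaling the median r over all gene pairs was 0.43 in germfree and 0.47 in conventional livers, so a pair of members is set against a higher background there. Differences of r and of spread gave 0 in all 6 alternatives run. Saa1, Hp and Hpx lie near the top of the signal range and Orm3 near background, which limits what can be measured in them.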

Other observations

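Marker genes of other liver cell types gave the following values. The median change of 9 tested Kupffer cell and macrophage markers was -0.40. Of these markers 3 fell in germfree liver and none rose, where 2.74% of all genes fell. They were the lectin Clec4f (-0.48 ± 0.10), and the complement genes C1qa (-0.41 ± 0.09) and C1qc (-0.41 ± 0.13), with limma adjusted p of 0.0018, 0.00394 and 0.0478. C1qc was lost in 21 of 30 fits that each left out a liver, and none of the 3 passed under median scaling (limma, adjusted p of 0.113 or more). Their summed level on the log2 scale was 9.30 to 10.56 in germfree and 9.63 to 10.63 in conventional livers. C1qa was also among the 5 genes most like Saa1, with r = 0.53 in germfree and 0.57 in conventional livers. No relation of a member with the Kupffer cell marker mean passed among the 140 tested.

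Of 3 tested adipocyte markers 1 fell, the lipid droplet gene Plin4 (-0.69 ± 0.19, limma adjusted p = 0.0224), where 2.74% of all genes fell. Adipoq was detected in 1 of 14 germfree and 7 of 16 conventional livers. Of 6 tested endothelial and stellate markers 2 rose, where 3.75% of all genes rose. Stab2, a scavenger receptor of the sinusoids, rose by 0.47 ± 0.11 and Reln by 0.35 ± 0.09 (limma, adjusted p = 0.00455 and 0.0176). Under median scaling these 3 did not pass (limma, adjusted p of 0.208 or more), and Plin4 and Reln did not pass without the arrays of low signal (limma, adjusted p = 0.0907 and 0.0518).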
